A study of Mus musculus with 23 samples.

Results

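The 10 genes described here are imprinted growth regulators that lie outside the Igf2 locus and its receptor: Dlk1, Meg3, Rian, Mest, Peg3, Peg10, Grb10, Plagl1, Ndn and Sgce. They were taken by symbol from the 32793 gene rows of the count and TPM tables, where all 10 have a row. RNA was sequenced from C2C12, an established mouse myoblast line whose cells stop dividing and form multinucleate myotubes in low serum. The 23 libraries form 8 groups: WT and Runx1KO cells (KO below), each kept in 20% fetal bovine serum as growth medium (day 0) or moved for 1, 3 or 6 days to 2% horse serum, the differentiation medium. The last day is 6 in the titles, used here, and 5 in the series text. Each group holds 3 libraries except WT at day 0, which holds 2. The labels say neither whether the KO cells are 1 clone or a pool, nor how they and the WT cells were made, and no label says that replicates came from separate cultures, so p-values measure the spread between these libraries, which may be technical.

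Imprinted genes are transcribed mainly from 1 parental copy, because the parental copies differ in DNA methylation or related marks set in the germ line. Several of them act on fetal growth and on progenitor cells, muscle progenitors among them. Most of the paternally expressed ones promote growth, and Grb10, expressed from the maternal copy in most tissues, restrains insulin and IGF signalling. The deposited values are totals per gene, so the parental copies are not separated here.

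Positions are in the mm10 genome. Mest (chr6:30723547-30748465, plus strand) ends inside Copg2 on the opposite strand, with which it shares 912 exonic bases, or 23.1% of its exonic length. Use of strand in the counting is not given in the sources used here, so reads in that overlap cannot be told apart. Sgce (chr6:4674350-4747207, minus strand) and Peg10 (chr6:4747306-4760517, plus strand) are divergent neighbours whose annotated starts are 99 bases apart. Peg3 (chr7:6703892-6730431, minus strand) likewise starts 147 bases from Usp29, which runs the other way. Dlk1, Meg3 and Rian follow each other on chromosome 12, with 77665 bases between the end of Dlk1 (chr12:109452823-109463336) and the start of Meg3 (chr12:109541001-109571726). Rian lies at chr12:109603940-109661716, Grb10 at chr11:11930508-12038683, Plagl1 at chr10:13060504-13131694 and Ndn at chr7:62346569-62350262.

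Promoter sequence is shown for Mest, whose level differed most between genotypes, and for the interval between Peg3 and Usp29. RefSeq (GRCm38.p6) holds promoter windows for 8 of the 10 genes; Peg10 and Sgce have none in the table. The stretches below run 5′ to 3′ on the gene's own strand and stop where an annotated exon begins. Capitals mark CpG dinucleotides, the sites that DNA methylation uses. The upstream and the downstream Mest stretch precede different annotated starts, and values per gene do not show which start was used.
Mest upstream start, chr6:30733256-30733453, plus strand: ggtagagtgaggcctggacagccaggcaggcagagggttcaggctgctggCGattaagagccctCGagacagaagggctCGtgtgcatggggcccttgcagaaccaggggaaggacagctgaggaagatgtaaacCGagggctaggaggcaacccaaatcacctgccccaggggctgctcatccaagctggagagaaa
Mest downstream start, chr6:30737800-30738049, plus strand: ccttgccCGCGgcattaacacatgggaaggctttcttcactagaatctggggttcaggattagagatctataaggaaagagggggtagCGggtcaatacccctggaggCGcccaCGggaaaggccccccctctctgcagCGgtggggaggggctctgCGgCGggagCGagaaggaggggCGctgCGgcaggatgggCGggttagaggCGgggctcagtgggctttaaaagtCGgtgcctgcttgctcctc
Peg3 to Usp29 interval, chr7:6730432-6730577, minus strand: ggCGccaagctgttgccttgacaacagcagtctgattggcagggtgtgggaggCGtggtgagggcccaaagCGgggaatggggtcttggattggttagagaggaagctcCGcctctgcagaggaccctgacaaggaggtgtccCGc
The upstream Mest stretch holds 4 CpG in 198 bases, the downstream one 14 in 250 bases, and the Peg3 interval 5 in 146 bases. Full RefSeq windows run from 250 bases before a start to 50 after it, and the median window of 32851 held 7 CpG. One Grb10 window (chr11:12037371-12037670) held 45, more than 98.1% of all windows, the Plagl1 window 26 and the Rian window 0. On both strands, TGTGGT, the core of the motif bound by Runx factors, occurred in 16.8% of all windows, in the Dlk1 window and in 1 of the Meg3 windows, and in no window of Mest, Peg3, Grb10, Plagl1, Ndn or Rian. CCGGAA, a motif of ETS factors, occurred in 14.9% of windows and in 1 Meg3 window. The E-box CAGCTG, bound by MyoD and myogenin, occurred in 16.3% of windows and in the window of the upstream Mest start. These matches describe letters in a window and are not evidence of binding.

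Libraries held 22197606 to 23684077 estimated counts. Levels are given as TPM (transcript abundance scaled for gene length and library depth), and differences as log2 fold changes of counts from edgeR's quasi-likelihood test, adjusted by Benjamini-Hochberg over 14187 tested genes, with a gene called at an adjusted p under 0.05. Runx1, the targeted gene, was not lower in the KO libraries: it averaged 29.0, 35.2, 57.1 and 83.9 TPM there at days 0, 1, 3 and 6, against 20.7, 28.0, 41.6 and 42.6 in WT, and was called higher on all 4 days. This goes against a loss of Runx1 mRNA, although a total per gene does not show whether a transcript is intact, so every direction below is for the libraries labelled KO. The day 1 KO library of replicate 2 stands apart from the 2 other libraries of its group (chi-square per degree of freedom 61.3 and 61.1, against 3.1 to 27.4 for other replicate pairs). All 8 muscle markers were above 1 TPM in at least 1 library of each genotype, though the differentiation markers Myog, Myh3, Actc1 and Ckm averaged under 1 TPM in both day 0 groups. The 8 summed to 1010 to 2090 TPM in WT and 1290 to 5250 in KO libraries. The 4 adipocyte markers summed to at most 0.07 TPM, the endothelial ones to at most 0.65 and the leukocyte ones to 2.11 to 9.2 in WT and 0.93 to 17.2 in KO libraries. Of the leukocyte markers, Cd68 was called only at day 6, where it averaged 16.34 TPM in KO and 5.58 in WT libraries. Csf1r was called lower in KO libraries at days 1, 3 and 6 (-1.79, -2.98 and -2.04 on the log2 scale), with 0.25 and 1.12 TPM at day 6, while Ptprc and Cd3e were at 0 in all KO libraries. Of the neuron markers, which summed to 90 to 263 TPM, Tubb3 and Stmn2 were present and the defining gene Snap25 was listed at 0 in both genotypes. Stmn2 was called lower in KO libraries on all 4 days (-0.55, -0.55, -0.44 and -0.54), and Tubb3 higher at days 1 and 3 (0.70 and 0.31) and lower at day 6 (-0.83). Against WT, 7.36%, 22.9%, 24.0% and 22.0% of all tested genes were called higher in KO libraries at days 0, 1, 3 and 6. Of the 8 muscle markers, 2, 6, 7 and 6 were called higher on these days. Des and Cdh15 were among them on all 4 days, Myog, Myh3, Actc1 and Ckm from day 1 on, and Myod1 only at day 3 (0.56 on the log2 scale, adjusted p = 0.00368). Myf5 was called lower at days 0, 1 and 6 (-1.43, -0.89 and -0.34) and not at day 3. Myog averaged 1118 TPM in KO and 201.3 in WT libraries at day 6, and Myf5 22.41 and 31.17. The part of these markers in the values below was not tested. In bulk RNA, fewer cells of a type and less RNA per cell cannot be told apart.

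The 10 genes differed widely in level. Sgce, Peg3, Mest and Peg10 were expressed in every library, with means over all libraries of 49.3, 29.8, 24.7 and 12.1 TPM. These lie at the 78.8, 68.1, 63.1 and 46.1 percentiles of tested genes. Grb10 and Plagl1 were near the bottom of the tested range, at 0.28 and 0.23 TPM (percentiles 5.92 and 4.67). Dlk1 and Meg3 were at the limit of detection, and Rian and Ndn had no count in any library. So 6 of the 10 genes passed the filter on low counts, and 4 did not.

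Dlk1 encodes a transmembrane protein with EGF-like repeats that holds back adipocyte and some muscle differentiation, and Meg3 and Rian are noncoding RNAs expressed from the maternal copy of the same cluster. Dlk1 had 3 counts in all, 2 in a KO library and 1 in a WT library, both of day 3. Meg3 had 6 counts spread over 5 libraries, with no more than 2 in any, and no TPM above 0.01. Rian, and its cluster neighbours Rtl1, Mirg and Dio3, were at 0 in all 23 libraries. Ndn encodes necdin, a MAGE-family protein that promotes muscle differentiation, and was at 0 in all 23, while its neighbour Magel2 had 1 count in 1 library. A count of 0 allows up to 3 counts, or 0.126 to 0.14 CPM (counts scaled to library size) in these libraries, for counting error only. Neither genotype nor day separated these 4 genes at this depth.

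Mest, the paternally expressed member of the alpha/beta-hydrolase fold family first found in mesoderm, had the largest differences between genotypes of the 10 genes. In WT libraries it was listed at 2.89 and 2.85 TPM at day 0. It stood at 69.36, 51.91 and 81.25 TPM at day 1, at 64.07, 69.62 and 59.89 at day 3 and at 30.33, 30.12 and 40.68 at day 6. In KO libraries it was at 1.17, 1.06 and 1.39 TPM at day 0, and at 5.84, 7.54 and 7.3 at day 1. It then stood at 9.96, 11.72 and 10.6 TPM at day 3 and at 2.64, 2.84 and 2.38 at day 6. WT libraries were high from day 1 on, KO libraries were highest at day 3, and the genotypes did not overlap on any day. The KO libraries of day 6 lay just below the WT libraries of growth medium.

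Against WT, Mest was 2.33-fold lower in KO libraries at day 0 (log2 fold change -1.22, SE 0.22, adjusted p = 0.00026). It was 9.59-fold lower at day 1 (-3.26, SE 0.13, adjusted p = 7.85e-15) and 5.41-fold lower at day 3 (-2.44, SE 0.13, adjusted p = 6.32e-13). At day 6 it was 11.7-fold lower (-3.55, SE 0.15, adjusted p = 4.84e-15). Mest rose in both genotypes after serum was lowered. The rise over day 0 was 21.6-, 20-fold and 10.3-fold at days 1, 3 and 6 in WT libraries, and 5.24-, 8.63- and 2.04-fold in KO libraries, all called. The change over time itself differed between genotypes: the interaction was -2.04 (SE 0.26, adjusted p = 9.3e-05) at day 1, -1.22 (SE 0.26, adjusted p = 0.00259) at day 3 and -2.34 (SE 0.27, adjusted p = 1.75e-06) at day 6. These 3 interactions share the day 0 libraries. Without the day 1 KO library that stands apart, the day 1 difference was -3.32 (adjusted p = 1.23e-13).

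**Figure D1:**
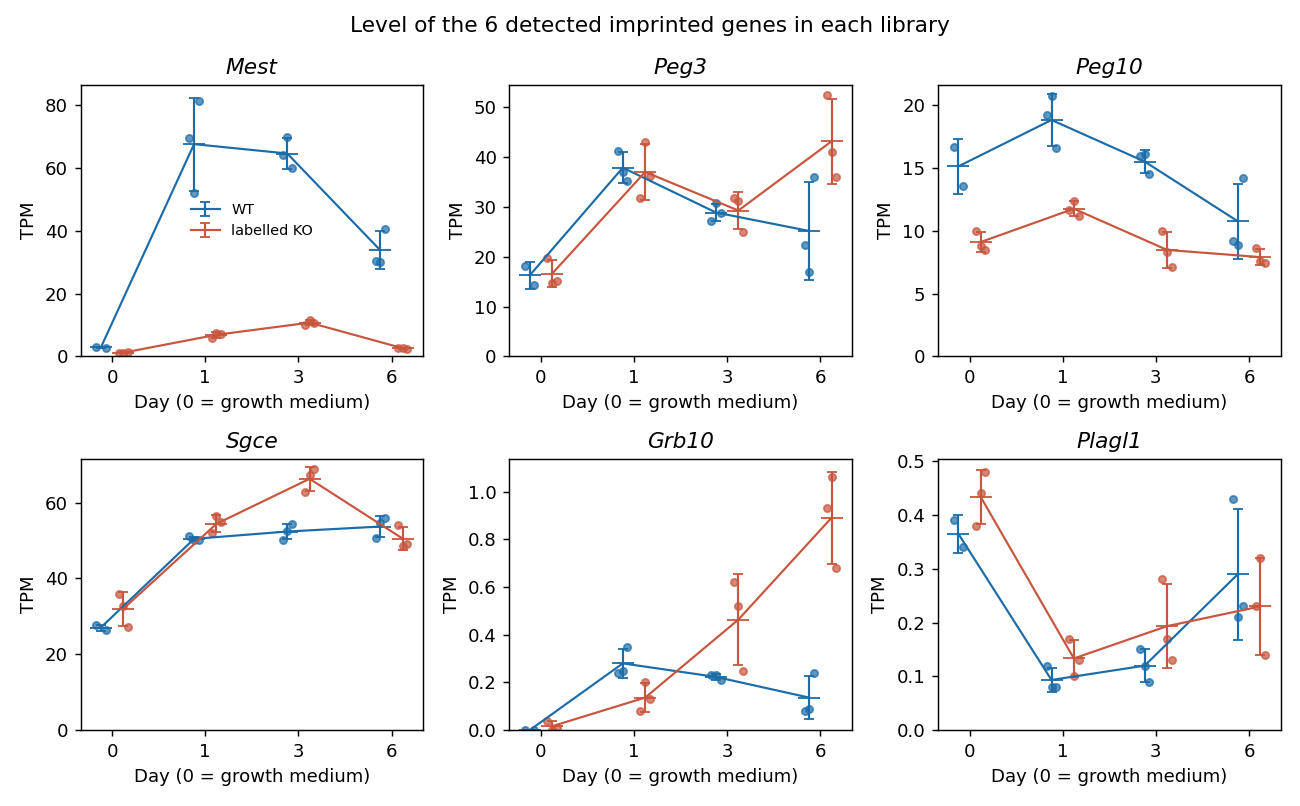
TPM of the 6 detected genes in every library (points), with the mean and SD of each group (bars), at day 0 (growth medium) and days 1, 3 and 6; each panel has its own linear axis. Mest separates the genotypes on every day, with WT at 51.91 to 81.25 TPM and KO at 5.84 to 7.54 TPM at day 1, while Peg3 separates little before day 6.

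Copg2, which overlaps the 3′ part of Mest, encodes a coatomer subunit. Like Mest it was higher at days 1, 3 and 6 than at day 0, by 0.80, 0.74 and 0.69 (log2) in WT and 0.86, 0.96 and 0.97 in KO libraries, all called. Its group means ran from 13.03 to 27.58 TPM. Between genotypes it differed in sign from Mest: it was 0.28 and 0.33 higher (log2) in KO libraries at days 3 and 6 (adjusted p = 0.0347 and 0.0126), where Mest was lower. The row of Mir335, the microRNA gene in an intron of Mest, was at 0 in all 23 libraries, and poly(A) selected libraries are not made to measure mature microRNAs.

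Peg10 and Sgce share a start region and are both paternally expressed. Peg10 derives from a retrotransposon and encodes Gag-like proteins needed for placental growth. Sgce encodes epsilon-sarcoglycan, a membrane protein of the dystrophin-associated complex. Peg10 was listed at 16.64 and 13.59 TPM in WT libraries at day 0, and at 19.18, 20.69 and 16.55 at day 1. It stood at 15.91, 16.1 and 14.48 TPM at day 3 and at 9.22, 8.85 and 14.17 at day 6. In KO libraries it was at 10, 8.82 and 8.48 TPM at day 0 and at 11.68, 12.39 and 11.18 at day 1. It stood at 9.96, 8.31 and 7.15 TPM at day 3 and at 8.62, 7.63 and 7.46 at day 6. Every KO library lay below every WT library of the same day, most narrowly at day 6.

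The Peg10 difference between KO and WT was -0.62 (SE 0.11, adjusted p = 0.000248), -0.66 (SE 0.099, adjusted p = 1.36e-05) and -0.77 (SE 0.10, adjusted p = 1.45e-06) at days 0, 1 and 3 on the log2 scale. At day 6 it was -0.31 (SE 0.10, adjusted p = 0.0176). That last call was lost without WT replicate 3 (-0.20, adjusted p = 0.109) and without KO replicate 2 (-0.29, adjusted p = 0.0621). Within genotypes, the Peg10 difference from day 0 was not called at day 1 (0.25, adjusted p = 0.0639) or day 3 (-0.08, adjusted p = 0.529) in WT libraries, nor at day 1 (0.21, adjusted p = 0.0858) or day 3 (-0.24, adjusted p = 0.0515) in KO libraries. The day 1 value in WT was called in 7 of 15 alternatives, leaving out WT replicate 1 of day 0 (0.37, adjusted p = 0.0414) or WT replicate 3 of day 1 (0.32, adjusted p = 0.0285) among them. The day 3 value in KO was called in 7 of 16, leaving out KO replicate 3 of day 0 (-0.29, adjusted p = 0.0349) or KO replicate 1 of day 3 (-0.32, adjusted p = 0.0201) among them, and the day 1 value in KO in 2 of 16, without KO replicate 1 of day 0 (0.29, adjusted p = 0.042) and with library size as the only scaling. From day 0 to day 6 Peg10 fell by 0.69 in WT libraries (adjusted p = 1.01e-05). In KO libraries the same difference was -0.37 (adjusted p = 0.00251), and limma on log2(TPM + 1) did not call it (-0.18, adjusted p = 0.268). No interaction of Peg10 passed the test (adjusted p = 0.942, 0.615 and 0.2 at days 1, 3 and 6).

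Sgce moved differently from Peg10. In WT libraries it was at 27.62 and 26.5 TPM at day 0, at 51.13, 50.13 and 50.04 at day 1, at 50.25, 52.54 and 54.3 at day 3 and at 50.56, 54.59 and 55.89 at day 6. In KO libraries it was at 35.97, 32.79 and 27.21 TPM at day 0 and at 51.94, 56.36 and 54.87 at day 1. It stood at 62.77, 67.14 and 68.87 TPM at day 3 and at 54.02, 48.45 and 48.95 at day 6. Only at day 3 were the KO libraries well clear of the WT ones. Sgce was 0.49 higher there (log2, SE 0.081, adjusted p = 2.88e-05). At day 0 it was 0.30 higher (SE 0.095, adjusted p = 0.0293), a call that 10 of 15 alternatives did not keep, leaving out either WT library, KO replicate 1 or KO replicate 2 among them. At days 1 and 6 it was not called (0.15 and 0.04, adjusted p = 0.151 and 0.752). Sgce rose over day 0 in both genotypes at each later day, by 0.76, 0.78 and 0.81 in WT and 0.61, 0.97 and 0.54 in KO libraries, all called. Its interactions were not called (adjusted p = 0.551, 0.386 and 0.187 at days 1, 3 and 6), although at day 6 it was without KO replicate 3 of day 0 (-0.37, adjusted p = 0.0364). Thus, at day 3, Peg10 was lower and Sgce higher in KO libraries although their starts lie 99 bases apart.

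Peg3 encodes a large zinc finger protein, also called Pw1, that marks progenitor cells in adult muscle. In WT libraries it was at 18.15 and 14.31 TPM at day 0, at 41.24, 37.01 and 35.25 at day 1, at 27.14, 30.72 and 28.7 at day 3 and at 22.44, 16.99 and 36.02 at day 6. In KO libraries it was at 19.68, 14.81 and 15.2 TPM at day 0 and at 31.7, 42.99 and 36.24 at day 1. It stood at 31.68, 31.13 and 24.95 TPM at day 3 and at 52.47, 40.98 and 35.89 at day 6. The genotypes overlapped through day 3. At day 6 the WT libraries spread widely, and the highest of them lay just above the lowest KO library in TPM, although not in CPM.

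Peg3 was 1.9-fold higher in KO libraries at day 6 (log2 fold change 0.93, SE 0.15, adjusted p = 2.95e-05), and was not called at day 0 (0.09, adjusted p = 0.802), day 1 (0.003, adjusted p = 0.991) or day 3 (0.17, adjusted p = 0.39). Over day 0 it rose by 1.09 and 0.66 at days 1 and 3 in WT libraries (adjusted p = 1.44e-05 and 0.00242), and by 1.00, 0.74 and 1.26 at days 1, 3 and 6 in KO libraries (adjusted p = 8.38e-06, 0.000254 and 1.38e-07). The day 6 value in WT, 0.43 (adjusted p = 0.0362), lost its call without WT replicate 3 of day 6 (0.23, adjusted p = 0.192) or WT replicate 2 of day 0 (0.29, adjusted p = 0.276). Leaving out the latter library also ended the WT call at day 3 (0.53, adjusted p = 0.0577). With only the groups compared, the day 6 rise of Peg3 in WT libraries was not called either (0.43, adjusted p = 0.0702). The day 6 interaction of Peg3 was 0.83 (SE 0.23, adjusted p = 0.0156). It was not called without WT replicate 1 of day 0 (0.65, adjusted p = 0.158), KO replicate 1 of day 6 (0.66, adjusted p = 0.0685) or WT replicate 1 of day 6 (0.73, adjusted p = 0.0608), nor by limma on log2(TPM + 1) (0.78, adjusted p = 0.0784) or log2(TPM + 0.1) (0.80, adjusted p = 0.086).

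Usp29, which starts 147 bases from Peg3 and is also paternally expressed, was expressed far less, with group means of 0.83 to 1.90 TPM. It too was called higher in KO libraries at day 6 (1.11, adjusted p = 2.5e-05) and on no other day. Peg3 and Usp29 share no exonic base in the annotation.

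**Figure D2:**
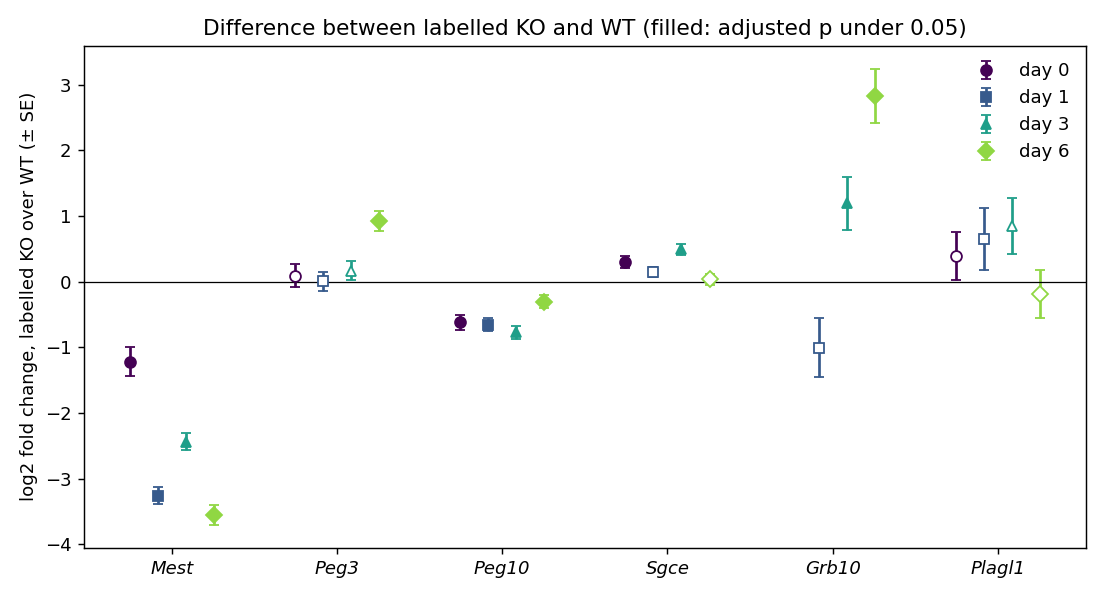
Log2 fold change of KO over WT libraries (points) with its standard error (bars) for the 6 tested genes at days 0, 1, 3 and 6; filled points have an adjusted p under 0.05, and Grb10 at day 0 is left out because both WT libraries had a count of 0. Mest lies lowest on every day, down to -3.55 at day 6, and Grb10 highest at day 6, at 2.83.

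Grb10 encodes an adaptor that binds the insulin and IGF1 receptors and dampens their signal. Its counts were low. WT libraries had 0 and 0 counts at day 0, 15, 16 and 23 at day 1, 14, 14 and 13 at day 3, and 5, 6 and 14 at day 6. KO libraries had 3, 0 and 1 counts at day 0, 5, 13 and 8 at day 1, 40, 34 and 17 at day 3, and 58, 73 and 47 at day 6. In WT libraries the counts were highest at day 1 and in KO libraries at day 6. At its highest, in KO libraries of day 6, Grb10 reached 0.68 to 1.06 TPM.

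Against WT, Grb10 was 7.12-fold higher in KO libraries at day 6 (log2 fold change 2.83, SE 0.41, adjusted p = 7.65e-06). At day 3 it was 1.19 higher (SE 0.40, adjusted p = 0.02). The day 3 call was lost without KO replicate 1 (0.94, adjusted p = 0.104), KO replicate 2 (1.11, adjusted p = 0.058), WT replicate 2 (1.17, adjusted p = 0.0586) or WT replicate 3 (1.16, adjusted p = 0.0587). At day 1 it was not called (-1.01, adjusted p = 0.0803); without the KO library that stands apart it was (-1.40, adjusted p = 0.044). No fold is given for day 0, where both groups were at or under the floor of 3 counts a library. Against that floor, the WT group means were at least 5.66-, 4.38- and 2.63-fold higher at days 1, 3 and 6 than at day 0. In KO libraries the summed counts of 26, 91 and 178 at days 1, 3 and 6, against 4 at day 0, give ratios of 6.18 (2.14 to 24.4), 22.2 (8.37 to 83.1) and 42.0 (16.1 to 155.9) with exact 95% intervals for counting error only. Of those 4 counts 3 are in replicate 1: the fitted log2 fold changes of 2.52, 4.35 and 5.27 became 3.76, 5.55 and 6.49 without that library, when they rest on 1 count. Limma on log2(TPM + 1) did not call the day 1 rise in KO libraries (0.16, adjusted p = 0.153) or the day 6 rise in WT libraries (0.18, adjusted p = 0.124). Whether the change since day 0 differed between genotypes could not be determined for Grb10, since the interaction rests on the day 0 counts.

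Plagl1 encodes a zinc finger transcription factor, also called Zac1, that can arrest the cell cycle. Its counts ran from 5 to 36 per library. WT libraries had 26 and 25 counts at day 0, 6, 5 and 6 at day 1, 10, 8 and 6 at day 3, and 30, 11 and 12 at day 6. KO libraries had 29, 33 and 36 at day 0, 10, 7 and 9 at day 1, 20, 12 and 10 at day 3, and 16, 19 and 11 at day 6. Both genotypes were highest in growth medium and lowest at day 1. Plagl1 fell at day 1 by 2.23 on the log2 scale in WT (SE 0.44, adjusted p = 0.000172) and by 1.97 in KO libraries (SE 0.38, adjusted p = 0.000122). At day 3 it was still lower than at day 0 in both (-1.71, adjusted p = 0.00137, and -1.25, adjusted p = 0.00398). At day 6 only the KO value was called (-1.17, adjusted p = 0.00473), while the WT value was -0.59 (adjusted p = 0.184), and -1.15 (adjusted p = 0.0137) without WT replicate 1 of day 6. Leaving out single libraries gave -1.15 to -0.30 for this WT value. Plagl1 was not called between genotypes on any day, with differences of 0.39, 0.65, 0.85 and -0.19 at days 0, 1, 3 and 6 (adjusted p = 0.558, 0.287, 0.105 and 0.724). The day 3 value was 0.50 (adjusted p = 0.421) without KO replicate 1.

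**Figure D3:**
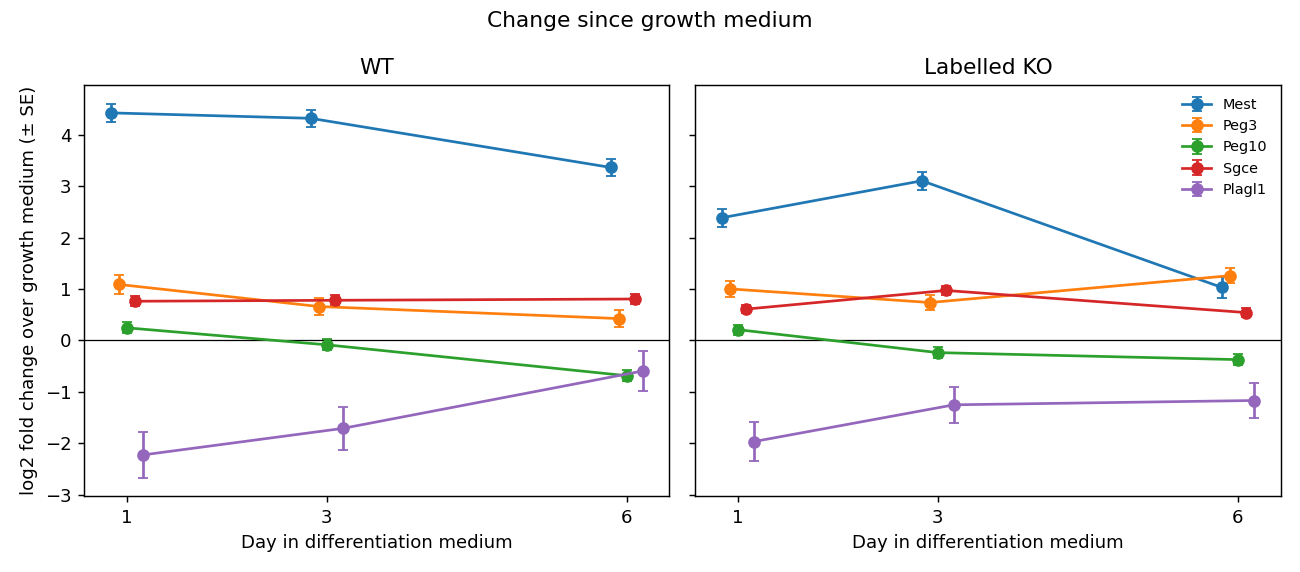
Log2 fold change over growth medium (points) with its standard error (bars) at days 1, 3 and 6, for WT (left) and KO (right) libraries, for 5 genes; Grb10 is left out because both WT libraries of day 0 had a count of 0. Mest rises to 4.43 in WT and 3.11 in KO libraries, Sgce and Peg3 rise less, and Plagl1 falls to -2.23 and -1.97 at day 1.

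The background shares below are over tested genes, so they are to be read against the 6 members that were tested. Against WT, 3 of these 6 were called at day 0, where 17.5% of all tested genes were called. Of these, 1 was higher (7.36% of all tested genes were) and 2 were lower (10.1%). At day 1 it was 2 of 6 against a background of 42.2%, both lower (19.2%), and 3 without the KO library that stands apart. At day 3 it was 4 of 6 against 43.2%, of which 2 were higher (24.0%) and 2 lower (19.2%). At day 6 it was again 4 of 6, against 42.9%, with 2 higher (22.0%) and 2 lower (20.8%). The split of the background depends on the scaling: of all calls 42.1%, 54.4%, 55.5% and 51.4% were higher in KO libraries at days 0, 1, 3 and 6, and 31.3%, 43.3%, 34.3% and 34.9% by limma on log2(TPM + 1), which moved the median of all genes by -0.06, -0.05, -0.15 and -0.12 on the log2 scale. With library size as the only scaling the day 0 share was 29.5%.

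Against day 0, 5 of the 6 tested genes were called at each of days 1, 3 and 6 in WT libraries, 4 higher and 1 lower each time. The backgrounds were 54.7% at day 1 (27.1% higher, 27.6% lower), 58.2% at day 3 (29.2% and 29.0%) and 63.6% at day 6 (32.6% and 31.1%). In KO libraries 5, 5 and 6 of the 6 were called, 4 of them higher each time and 1, 1 and 2 lower. The backgrounds were 52.3% at day 1 (27.2% higher, 25.2% lower), 57.6% at day 3 (30.4% and 27.2%) and 70.0% at day 6 (36.6% and 33.5%). The interaction was called for 1 gene at day 1, Mest, where 3.95% of genes were called (2.64% higher, 1.31% lower). It was called for Mest alone at day 3, against 10.7% (6.65% and 4.06%), and for Mest and Peg3 at day 6, against 13.0% (7.54% and 5.42%). Limma on log2(TPM + 1) moved these splits too. In WT libraries the higher share of calls went from 49.6%, 50.1% and 51.2% at days 1, 3 and 6 to 60.6%, 63.8% and 63.5%, with medians moved by 0.13, 0.16 and 0.17. In KO libraries it went from 51.9% to 65.2% at day 1, with medians moved by 0.13 there and 0.11 at day 6. The higher share of the interactions went from 66.8% to 51.4% at day 1 and from 62.1% to 45.2% at day 3, and at day 3 to 51.6% with RLE scaling. The median log2 difference of the 6 tested genes between KO and WT was 0.20, -0.33, 0.33 and -0.07 at days 0, 1, 3 and 6, and that of all tested genes was between -0.001 and 0.04. With so few genes tested, nothing about the group as a whole is read from these counts, and its members did not move in 1 direction.

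The order of the 8 groups differed from gene to gene, on the CPM scale. For Mest it ran from WT day 1 and WT day 3, which overlapped, through WT day 6, KO day 3, KO day 1, WT day 0 and KO day 6 to KO day 0, with no overlap between later neighbours. For Peg3 it began with KO day 6, KO day 1 and WT day 1, whose neighbours overlapped, and ended with KO day 0 and WT day 0, which overlapped too. For Peg10 the 3 highest groups were WT day 1, day 0 and day 3, and the lowest was KO day 6. For Sgce, KO day 3 was highest and the 2 day 0 groups lowest, and between them KO day 6, WT day 6, WT day 3 and WT day 1 each overlapped the next. Grb10 was highest at KO day 6, and Plagl1 in the 2 day 0 groups.

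Over the 8 group means of log2 CPM, which share libraries and scaling, Peg3 and Grb10 correlated at r = 0.88 and Grb10 and Sgce at 0.84, while Mest and Plagl1 correlated at -0.80. The Grb10 means of day 0 rest on at most 3 counts a library. Its correlations, here and below, therefore depend on the prior count of 2 added before taking log2. Mest and Peg10 correlated at 0.47, and Peg10 and its neighbour Sgce at -0.42. Of about 10664 candidate genes, the patterns most like that of Mest were those of Cnot8 (r = 0.99) and Lix1l (0.98). For Peg3 these were Mgrn1 (0.98) and Acads (0.97), and for Peg10 Nsd1 and Fam189b (both 0.95). For Grb10 they were Arl6ip5 (0.996) and Hacd1 (0.99), for Plagl1 Pfdn2 (0.99) and Relt (0.97), and for Sgce Plau and Armcx6 (both 0.98). Correlation does not reflect the size of a change. Group means ran from 57.0 to 66.7 CPM for Cnot8 and from 1.91 to 96.0 CPM for Mest. With 8 points and many candidates the correlations are descriptions.

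A list of 28 neighbours of the 10 genes in their clusters had 27 members in the tables (Zfp264 was not analysed here), of which 15 were tested. Against WT, 2, 6, 9 and 9 of these were called at days 0, 1, 3 and 6, with 0, 4, 7 and 7 higher. Over all tested genes 17.5%, 42.2%, 43.2% and 42.9% were called, and 7.36%, 22.9%, 24.0% and 22.0% were higher. The median log2 difference of the tested neighbours was 0.07, 0.02, 0.40 and 0.28. Pon3, a lactonase gene in the Peg10 and Sgce cluster, was lower in KO libraries on all 4 days, by -0.93, -1.29, -1.45 and -1.75 (log2), with means of 4.14 TPM in KO and 15.2 TPM in WT libraries at day 6. Snurf, in the Ndn cluster, was also called lower on all 4 days (-0.53, -0.81, -0.91 and -1.20). Its transcript is shared with Snrpn, so reads may be split between them, and its day 0 call was lost without any 1 of KO replicates 2 and 3 and WT replicates 1 and 2. Ddc and Cobl flank Grb10. Ddc, which encodes aromatic amino acid decarboxylase, was higher in KO libraries at days 3 and 6 (1.62 and 2.87), with means of 16.01 and 2.41 TPM at day 6. At days 0 and 1 its difference had the other sign and was not called (-1.10 and -0.54, adjusted p = 0.0575 and 0.072), with means of 0.41 TPM in KO and 0.75 in WT libraries at day 0. Cobl, an actin nucleator gene, was higher at days 1, 3 and 6 (0.75, 1.63 and 2.67), and was not called at day 0 (0.57, adjusted p = 0.0577).

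On day 6, then, Grb10 and both of its tested neighbours were higher in KO libraries, with 2.83, 2.87 and 2.67. Cpa4, a carboxypeptidase gene near Mest, was higher in KO libraries where Mest was lower: 1.13, 2.75 and 2.62 at days 1, 3 and 6. Its day 1 value rests on 28 counts against 13, a ratio of 2.22 (1.11 to 4.7, exact 95% counting interval), and lost its call without any 1 of 5 of the 6 libraries, KO replicate 3 being the exception. DESeq2 (1.13, adjusted p = 0.0581) and edgeR without a low-count filter (1.11, adjusted p = 0.053) did not call it either. Zim1, a zinc finger gene next to Peg3, was higher at days 3 and 6 (1.03 and 2.05), the former not without KO replicate 1 or WT replicate 1 or 3.

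Of 16 imprinted genes elsewhere in the genome 9 were tested, and 4, 7, 5 and 6 were called against WT at days 0, 1, 3 and 6, with 2 higher each time, beside the same shares of 17.5%, 42.2%, 43.2% and 42.9% over all tested genes. Their median log2 difference was 0.10, -0.18, -0.03 and -0.11. Cdkn1c, which encodes the cell cycle inhibitor p57, was lower in KO libraries on all 4 days. At day 0 KO libraries had 0 to 2 counts and 3 in all, and WT libraries 64 in all, so that WT was 31.3-fold higher (10.2 to 155.8, exact 95% counting interval). At days 1, 3 and 6 the log2 difference of Cdkn1c was -2.86, -1.09 and -1.75, and the day 3 call was lost without KO replicate 3 (-0.83, adjusted p = 0.0506). Zrsr1, a splicing factor gene, was called lower on all 4 days (-0.45, -0.40, -0.62 and -0.57), the first of these not without KO replicate 2 or 3 or WT replicate 1; it has a close copy elsewhere in the genome, so its reads may be shared. Gatm, which encodes the first enzyme of creatine synthesis, was higher on all 4 days (0.38, 0.63, 0.96 and 1.32). Dcn, the decorin gene, was higher at days 0, 3 and 6 (1.89, 1.01 and 0.74) and lower at day 1 (-0.66); without KO replicate 1 or either WT library it was not called at day 0. Sfmbt2, a Polycomb-type gene, was lower at days 1, 3 and 6 (-0.53, -1.24 and -0.73), at day 1 not without KO replicate 1 or WT replicate 1 or 2.

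Factors that keep imprints through cell division formed the last list, of 8 genes with 7 tested. None was called between genotypes at day 0 by edgeR, DESeq2 or limma, 0 had an unadjusted p under 0.05, and an edgeR fit on the day 0 groups alone called 1. At days 1 and 3, 6 and 5 were called, all higher in KO libraries, where 42.2% and 43.2% of all tested genes were called and 22.9% and 24.0% were higher. At day 6 it was 1, lower, against 42.9% called and 20.8% lower. This was Smchd1, with means of 14.05 TPM in KO and 20.51 TPM in WT libraries. At day 1 Smchd1 was among those called higher, with means of 20.85 and 16.5 TPM. The list's median log2 difference was 0.06, 0.45, 0.42 and 0.04 at days 0, 1, 3 and 6. Uhrf1 (0.64 at both days 1 and 3) and Dnmt1 (0.51 and 0.42), which copy DNA methylation at replication, were among those called higher, as were the insulator protein Ctcf (0.45 and 0.51) and the corepressor Trim28 (0.26 and 0.46). Zfp445, a zinc finger protein that binds imprinting control regions, was 0.71 higher at day 1, and 0.32 (adjusted p = 0.0255) without the KO library that stands apart; with only the groups compared it was not called (0.69, adjusted p = 0.0578). Limma on TPM did not call Dnmt1 at day 3 (0.27, adjusted p = 0.0568 with a pseudocount of 1). The day 1 call of Trim28 was lost in 13 of 16 alternatives, leaving out any WT library of day 1 or KO replicate 1 or 3 among them. Uhrf1 averaged 46.4 TPM in KO and 30.8 TPM in WT libraries at day 1, and 93.3 and 103.9 at day 0.

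**Figure D4:**
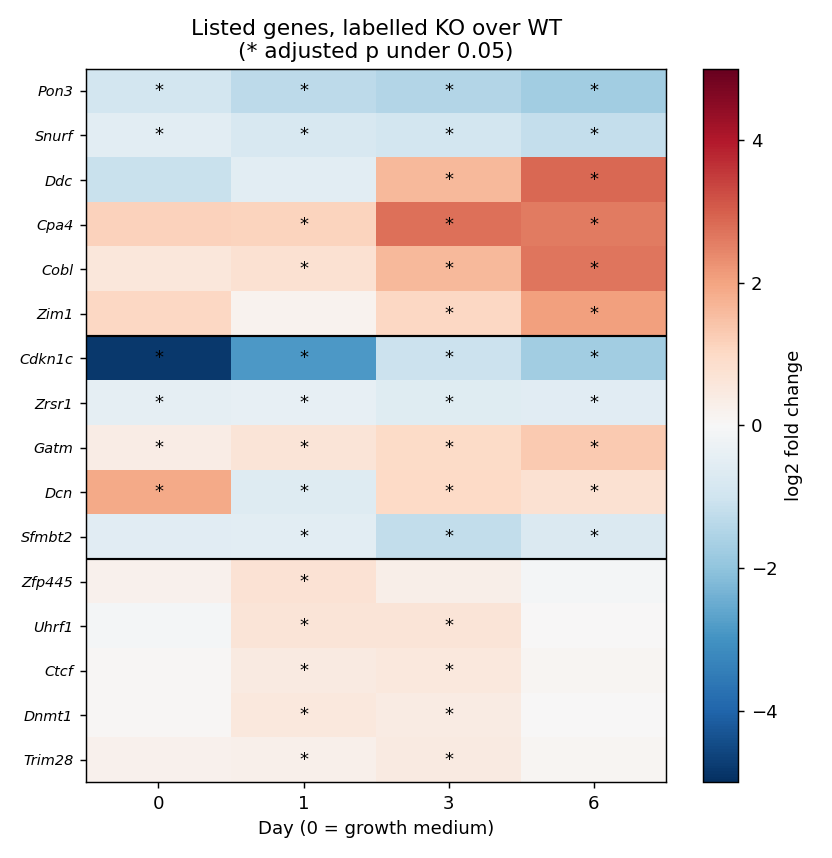
Log2 fold change of KO over WT libraries (colour) at days 0, 1, 3 and 6 for the named genes of the 3 lists: neighbours of the 10 genes, other imprinted genes and imprint maintenance factors; an asterisk marks an adjusted p under 0.05. Cobl and Ddc are highest at day 6 and Cpa4 at days 3 and 6, Cdkn1c, Pon3 and Snurf are lower on every day, and the maintenance factors shown are marked only at days 1 and 3. The Cdkn1c value of day 0 (-4.81) rests on 3 counts in KO libraries.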

How the data were processed

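RNA-seq libraries of C2C12 were made from poly(A) selected RNA, per the labels' protocols. The authors deposited 2 tables of all 23 libraries: estimated counts per gene symbol, given as whole numbers, and TPM. Bowtie2, RSEM and the mm10 build are named in the submitters' processing notes, without their roles; versions, annotation and use of strand are not given in the sources used here. Of the entries, 790 had a count of 0 with a TPM above 0, so the deposited counts are rounded estimates.

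Counts were scaled by TMM and tested in edgeR 4.0.16 (R 4.3.3) by the quasi-likelihood F-test, after filterByExpr (minimum count 10, minimum total count 15) left 14187 of 32793 genes. One group-means model over all 23 libraries gave 13 contrasts: KO against WT on 4 days, each later day against day 0 in each genotype, and 3 interactions. Benjamini-Hochberg adjustment ran over all tested genes of a contrast. Standard errors derive from the F statistic. The edgeR fit of KO against WT at day 6 was also run on simulated counts, with no outcome given here. Alternatives were RLE or no scaling, other filters, DESeq2 1.42.0, limma 3.58.1 on log2(TPM + 1) and log2(TPM + 0.1), only the groups compared, a replicate block, leaving out each library, and a threshold of 0.01. Libraries with equal replicate numbers shared little of their deviations. The mean correlation was -0.094 to 0.049 over the contrasts other than interactions, with single pairs from -0.24 to 0.12. This does not show whether such libraries were handled together.

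Of each list, genes called in the same direction on all 4 days were named, and the 5 largest called changes among genes with a mean of at least 1 CPM in 1 group. Usp29 and Copg2 were added as neighbours that touch a member, and Smchd1 as the maintenance factor called lower at day 6. Genes most like a member have a mean of at least 5 CPM in 1 group. Gene positions are from GENCODE M21 (mm10). The genes and lists were chosen with earlier results of these data known.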

Additional observations from a re-analysis of the deposited data

Results flagged for a closer look

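The change of Mest since growth medium differed between genotypes on each later day by a test of the difference itself, the edgeR interaction term. The interaction was -2.04, -1.22 and -2.34 on the log2 scale at days 1, 3 and 6, and was called under each alternative run. The interaction of Peg3 at day 6, 0.83 (adjusted p = 0.0156 in edgeR), was also called, and was not called without any 1 of 3 libraries, by limma on TPM with either pseudocount, or at a threshold of 0.01. Both tests use the same 2 WT libraries of day 0. No test for single outlying libraries was run on groups of 2 or 3.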

How the results depend on the processing

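The 6 tested genes gave 78 results and 1281 values under the alternatives, of which 1189 kept their direction and their side of the threshold, 34 lost the call, 19 gained one and 39 changed sign. All results of Mest held under every alternative run. Leaving out each library gave 1 to 3 interactions called at day 6 (2 in the full set), and a threshold of 0.01 gave 1. With a mean count of at least 50, which drops Grb10 and Plagl1, 3 of the 10 genes were called at day 3 in WT and 3 at day 1 in KO against day 0 (5 each in the full set). With only the groups compared, 3 were called in WT at day 6 against day 0 (5 in the full set), and Peg3 was not (adjusted p = 0.0702 in edgeR).

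Signs changed only for differences that edgeR on all libraries did not call. Peg3 at day 1 between genotypes was -0.0166 with RLE scaling, -0.0361 with library size only, -0.0135 without a filter, -0.0393 with a mean count of at least 50, -0.0167 in DESeq2, -0.0399 and -0.041 in limma with TPM + 1 and TPM + 0.1 and -0.0185 with only the groups compared; leaving out libraries gave -0.104 to 0.0759. Leaving out libraries also gave -0.036 to 0.249 for Peg3 at day 0, -0.448 to 0.398 for Plagl1 at day 6 and -0.037 to 0.11 for Sgce at day 6. Sgce at day 6 was -0.0308 with library size only and -0.0876 and -0.0891 in limma. Peg10 in WT at day 3 against day 0 was 0.0388 and 0.0414 in limma, and -0.163 to 0.0346 without single libraries. Interactions in limma (TPM + 1, then TPM + 0.1) were 0.0394 and 0.0528 for Peg10 at day 1, -0.0126 and -0.0137 for Peg3 at day 3, 0.226 and 0.529 for Grb10 at day 3 and 0.708 and 1.90 for Grb10 at day 6 (both called, adjusted p = 0.000764 and 0.0056), and -0.0185 for Plagl1 at day 1 with TPM + 1. Without single libraries they ran from -0.252 to 0.0413 (Peg3, day 1), -0.143 to 0.0416 (Peg10, day 1), -0.117 to 0.206 (Peg3, day 3) and -1.31 to 0.422 (Grb10, day 6). The cause was not tested.

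With a replicate block, 3, 2, 4 and 4 of the 10 genes were called between genotypes at days 0, 1, 3 and 6, as without it; among the listed neighbours, 1 was called at day 0 in place of 2. Other list counts moved too: neighbours at day 0 to 4 with only the groups compared; other imprinted genes at day 0 from 4 to 2 without WT replicate 1 and at day 1 from 7 to 4 with only the groups compared; maintenance factors at day 1 from 6 to 3 with only the groups compared and at day 3 from 5 to 3 in limma on TPM. Low counts limit Grb10, Plagl1 and Cpa4, and the 2 libraries of WT day 0 limit each comparison with growth medium.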
